A study of Mus musculus with 4 samples.

Results

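Krt35 hair shaft cells are keratinocytes of the growing hair that carry the type I hair keratin Krt35 together with Hoxc13, a transcription factor that switches on hair keratin genes. They were picked from raw transcript counts (UMIs, unique molecular identifiers) in 4 single-cell libraries of mouse skin, as barcodes with at least 300 genes, at most 15% mitochondrial UMIs, no UMI of the leukocyte gene Ptprc, at least 5 UMIs of Krt35 and at least 1 UMI of Hoxc13. The rule found 84 cells among 27755 cells that passed the filters on genes and mitochondrial UMIs. Of these, 80 came from oxazolone day 10, 3 from oxazolone day 16, 0 from MC903 day 9 and 1 from untreated skin.

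All libraries were made from pooled neck and ear skin of 3 female C57BL/6J mice aged 6 to 8 weeks, with 1 library per condition. Oxazolone, a hapten that causes contact allergy, was given at 3% to sensitise the skin and at 1.0% on alternate days from 7 days later, and skin was taken at day 10 and day 16. MC903 (calcipotriol, a vitamin D analog) was applied daily at 1 nmol for 9 days. The neck of treated mice was shaved 1 day before treatment, and whether the untreated mice were shaved is not stated. There was no library of skin given the solvents alone, the enzyme mix was chosen to release more fibroblasts, and dead cells were removed before loading, so the shares of cells below describe these suspensions. With 1 library per condition there was no spread between replicates and no test was made. Each interval is a 95% interval of counting error only, and treatment, day of harvest and library cannot be told apart.

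In a growing follicle, matrix cells divide around the dermal papilla at the base of the bulb and move up into concentric layers that become the hair shaft and the inner root sheath. Hair shaft precursors respond to Wnt signals through Lef1 and need BMP signals to mature, while Notch signals act on the layers above the dividing cells. Hair keratins are made in sequence, with Krt35 among the early ones, and the keratin-associated proteins (Krtap) that cross-link them follow late.

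Promoters are shown for 3 of the 4 genes with the highest level in these cells relative to other follicle keratinocytes, Krt35 apart, when genes under 200 UMIs in both groups are left out. Selenbp1 encodes a selenium-binding enzyme, Mt4 is the metallothionein of stratified epithelia, and Dapl1 is a gene linked to epithelial differentiation. The stretches run from 250 bases before to 50 bases after the gene start, are from RefSeq on GRCm38.p6 and read 5′ to 3′, with capitals at the motifs TATAAA, which helps to place the start of transcription, and CTTTGA, with its variant form CTTTGT, which is the core bound by Lef1 and its relatives; each was searched on both strands. No match overlapped another.
Selenbp1 (chr3:94932833-94933132, plus strand): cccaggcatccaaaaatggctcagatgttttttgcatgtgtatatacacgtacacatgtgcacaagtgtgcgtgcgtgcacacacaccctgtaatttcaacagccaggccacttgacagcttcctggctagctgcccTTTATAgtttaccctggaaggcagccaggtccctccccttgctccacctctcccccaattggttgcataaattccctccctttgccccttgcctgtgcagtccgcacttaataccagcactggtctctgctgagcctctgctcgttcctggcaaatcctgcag
Mt4 (chr8:94136954-94137253, plus strand): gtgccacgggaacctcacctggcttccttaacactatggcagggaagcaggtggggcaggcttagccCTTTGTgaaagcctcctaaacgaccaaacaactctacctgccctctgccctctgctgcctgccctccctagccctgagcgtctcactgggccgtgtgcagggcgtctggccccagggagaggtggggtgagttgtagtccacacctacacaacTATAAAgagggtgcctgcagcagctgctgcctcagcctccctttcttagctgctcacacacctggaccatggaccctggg
Dapl1 (chr2:59484403-59484702, plus strand): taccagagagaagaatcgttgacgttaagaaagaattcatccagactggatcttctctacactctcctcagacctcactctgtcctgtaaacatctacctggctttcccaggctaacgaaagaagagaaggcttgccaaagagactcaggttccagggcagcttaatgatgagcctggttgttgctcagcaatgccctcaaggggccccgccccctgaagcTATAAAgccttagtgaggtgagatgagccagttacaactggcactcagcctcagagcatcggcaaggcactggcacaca
TATAAA lay at position -30 from the start in Mt4 and at position -29 in Dapl1, and in Selenbp1 it read from the opposite strand at position -113. Of the 14 genes with the highest ratios at that minimum of 200 UMIs other than Krt35, described further on, 11 had a promoter in the table, 3 of them with TATAAA and 5 with the Lef1 core. Among 32851 promoters of the same length, 13.6% held TATAAA and 31.2% held the Lef1 core. These matches describe letters only.

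The number of Krt35 hair shaft cells differed widely between the libraries. Oxazolone day 10 held 80 of 8301 cells, or 0.964% (0.765 to 1.20, exact Clopper-Pearson). Oxazolone day 16 held 3 of 7909 cells, or 0.0379% (0.00782 to 0.111). MC903 day 9 held 0 of 3843 cells, which allows a share of up to 0.0781% by the limit of 3 counts (0.0959% by Clopper-Pearson), and untreated skin held 1 of 7702 cells, or 0.0130% (0.000329 to 0.0723). The interval of oxazolone day 10 did not overlap those of the other 3 libraries. The same order held when leukocytes were left out: the cells made up 2.41% of cells without Ptprc UMIs at oxazolone day 10, 0.175% at oxazolone day 16, 0% in MC903 day 9 and 0.0176% in untreated skin. The libraries also differed in follicle keratinocytes of other kinds. Cells with at least 5 UMIs of the basal keratin Krt5, at least 1 UMI of the follicle transcription factor Lhx2 and none of Krt35 or Ptprc numbered 567 at oxazolone day 10, 54 at oxazolone day 16, 7 in MC903 day 9 and 301 in untreated skin. Set against those cells, Krt35 hair shaft cells made up 12.4% (9.93 to 15.2) of both kinds together at oxazolone day 10, 5.26% (1.10 to 14.6) at oxazolone day 16, 0% (0 to 41.0) in MC903 day 9 and 0.331% (0.00838 to 1.83) in untreated skin. On this scale oxazolone day 10 stood clear of untreated skin, while its interval overlapped those of oxazolone day 16 and MC903 day 9.

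**Figure D1:**
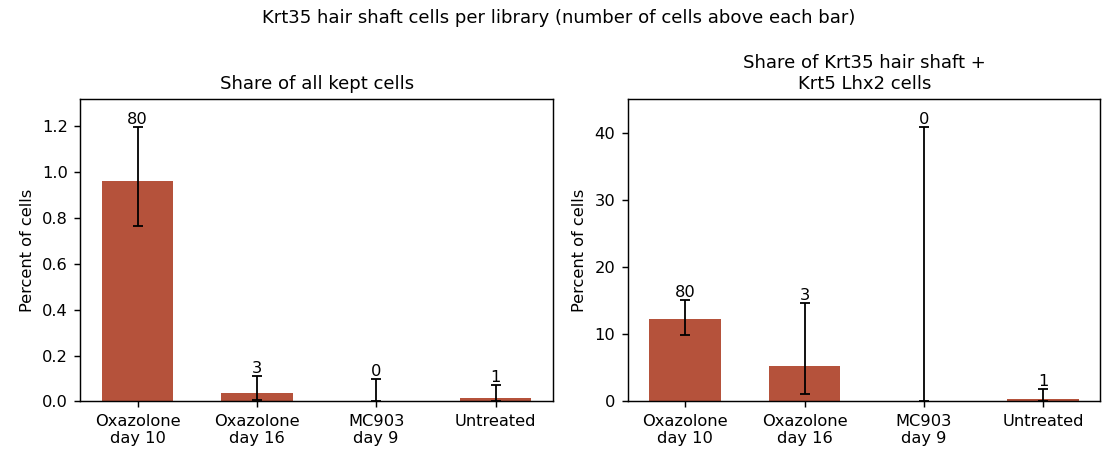
Krt35 hair shaft cells in each library, as a percentage of all kept cells (left) and of Krt35 hair shaft plus Krt5 Lhx2 cells (right), with exact 95% intervals as error bars and the number of cells above each bar. Oxazolone day 10 stands at 0.964% at the left, clear of the other libraries, and at 12.4% at the right, where its interval overlaps those of oxazolone day 16 and of MC903 day 9, which held 7 Krt5 Lhx2 cells.

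Most Krt35 transcripts lay in these cells, which the Krt35 minimum of the rule favours. The kept cells held 3377 Krt35 UMIs at oxazolone day 10, of which the 80 cells accounted for 77.5%, and 223 UMIs at oxazolone day 16, of which 3 cells accounted for 89.2%. MC903 day 9 held 1 Krt35 UMI and untreated skin held 6, all 6 in 1 cell. The Krt35 hair shaft cells of oxazolone day 10 had a median of 24763 UMIs (range 6772 to 53528). As a measure of free RNA in the droplets, 8 of 464 fibroblasts of the same library (1.72%, 0.747 to 3.37) had a Krt35 UMI, at a median of 27519 UMIs. Near the cutoff, 7 of the 80 cells had exactly 5 Krt35 UMIs and 25 had 5 to 9, while 15 cells with Hoxc13 lay just outside with 3 or 4. A further 13 cells met the rule apart from a Ptprc UMI. No barcode of a Krt35 hair shaft cell was shared between libraries, although 60 barcodes of kept cells occurred in more than 1.

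A few of the 80 cells held transcripts of another cell type. The melanosome gene Pmel reached at least 5 UMIs in 2 cells, the collagen gene Col1a1 at least 10 UMIs in 1 cell and the inner root sheath keratin Krt71 at least 5 UMIs in 1 cell. These 4 cells are called mixed below, and results that rest on them are given with and without them. In comparisons with other cells, only the Krt35 hair shaft side was filtered in this way. The cells compared with them kept any such mixed cells. Doublet scores marked 3 of the 80 cells. The rule allowed no Ptprc UMI, which favours low levels of leukocyte genes. Leukocyte, vessel and red cell markers were near 0: the summed level of the macrophage list, with Adgre1 at 0, was 13.4 CPM (UMIs of a gene per 1e6 UMIs of the cells), of the T and mast cell list 2.31 CPM, of the endothelial and mural list, with Cdh5 and Kdr at 0, 5.54 CPM, and 0 of the 5 erythroid markers had a UMI. The neutrophil list stood at 73.4 CPM (0 to 324 per cell), with 3 of 6 markers detected and Csf3r, Cxcr2 and Ly6g at 0, against 95.5 CPM in the Krt5 Lhx2 cells. The fibroblast list, with all 6 markers detected, stood at 344 CPM in the Krt35 hair shaft cells, at 734 CPM in the Krt5 Lhx2 cells and at 34376 CPM in fibroblasts.

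Krt35 was the hair keratin with the highest level, which the rule favours, since it set a minimum for Krt35 and for no other hair keratin. Krt35 (chr11:100092192-100096224 on GRCm38) reached 1208 CPM (1162 to 1255), with a lowest cell at 114, a median cell at 724 and a highest cell at 8042 CPM, and it made up 91.0% of the 2876 UMIs of all hair keratins. Three-prime UMI counts do not grow with transcript length, so levels can be set side by side. The type II hair keratins followed at much lower levels. Krt86 had 64.2 CPM (53.9 to 75.8) and was seen in 52 of 80 cells, Krt83 had 25.9 CPM (19.5 to 33.6) in 35 cells and Krt87 had 24.9 CPM (18.7 to 32.5) in 35 cells. These 3 genes lie near each other on chromosome 15, with Krt81 between Krt87 and Krt86, and are close copies, so the count of each is uncertain. The remaining hair keratins were at or near 0. Krt32 and Krt36 had 4 UMIs each, Krt39 had 2 and Krt81 had 1, and 7 of the 15 hair keratins in the table (Krt31, Krt33a, Krt33b, Krt34, Krt40, Krt82 and Krt84) had none. A count of 0 over the 80 cells allows a level of up to 1.39 CPM. Krt85 was not analysed here.

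The late cross-linking proteins were nearly absent. Of 57 Krtap genes in the table, 7 had a UMI, with 57 UMIs in all (26.3 CPM) in 20 of 80 cells. Krtap8-1 led with 22 UMIs in 7 cells. Of the genes that bear on the label of hair shaft cells, Krt35 and Hoxc13 were required by the rule and Mt4 is a marker given with it, so their presence is no check. Dsg4 and the Krt86 group were present, while the cortex keratins Krt31, Krt33a, Krt33b and Krt34 were not detected at this depth and cuticle genes were low or undetected apart from S100a3.

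Several other genes of the shaft were high. Mt4 (chr8:94137204-94139031) reached 1349 CPM (1300 to 1398), with cells from 0 to 10032 CPM around a median of 742, and was seen in 72 of 80 cells. Selenbp1 (chr3:94933083-94944758) reached 537 CPM (507 to 569) in 58 cells, which held 50.7% of its UMIs in the library; 106 of 464 fibroblasts had a Selenbp1 UMI as well. Dsg4, a desmosomal cadherin without which hairs break, reached 160 CPM (144 to 178) in 58 cells. S100a3, a calcium-binding protein of the hair cuticle, averaged 65.6 CPM (55.2 to 77.3) but was seen in only 29 cells, and 1 cell held 20.4% of its UMIs. The desmosome genes Dsp and Jup stood at 750 CPM (714 to 788) and 200.4 CPM (182 to 220.1).

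Transcripts of the neighbouring inner root sheath were also found. Krt28 had 112 CPM (98.5 to 127) in 55 of 80 cells, Krt25 had 90.0 CPM (77.8 to 104) in 38 cells and Krt27 had 45.7 CPM (37.1 to 55.6) in 47 cells. Krt71, which marks the later inner root sheath, had 18.9 CPM, but 92.7% of its UMIs lay in 1 cell and 3 cells had any. In 464 fibroblasts, by comparison, 5 cells had a Krt28 UMI and 10 a Krt25 UMI. Basal keratins were present at low level, with 203 CPM of Krt5 (184 to 223), 147 CPM of Krt17 (131 to 164) and 58.6 CPM of Krt14 (48.9 to 69.8). The companion layer keratin Krt6a had 0 UMIs, while Krt75, another keratin of that layer, had 27 UMIs (12.5 CPM).

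**Figure D2:**
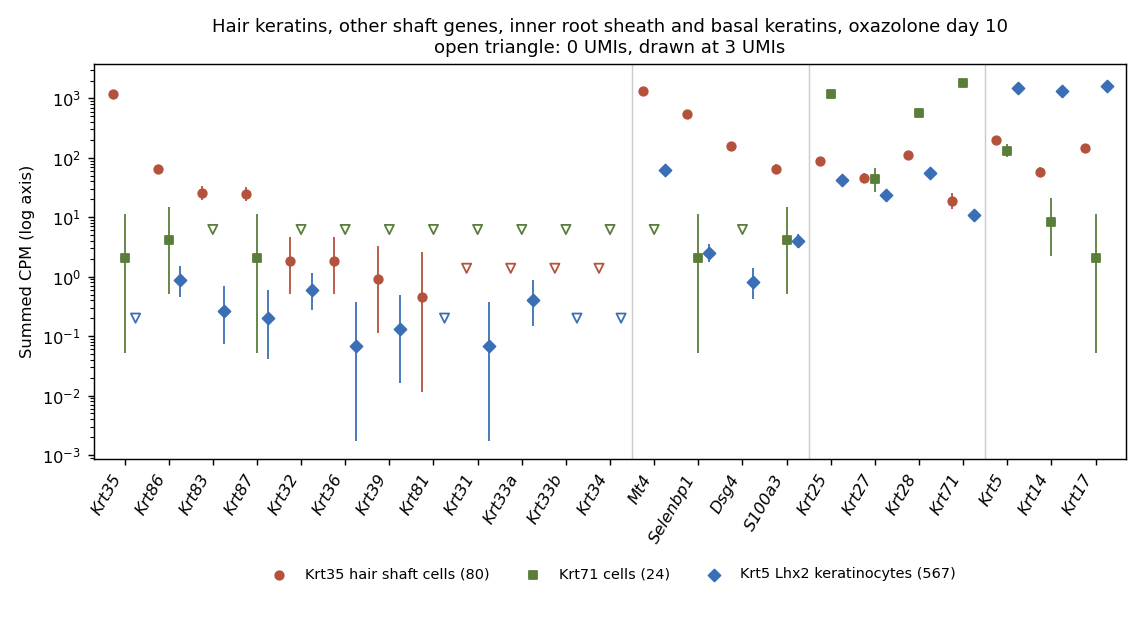
Summed level in CPM (log axis) of hair keratins, other shaft genes, inner root sheath keratins and basal keratins in 80 Krt35 hair shaft cells, 24 Krt71 cells and 567 Krt5 Lhx2 keratinocytes of oxazolone day 10, with Poisson 95% intervals as bars and open triangles for genes with 0 UMIs, drawn at 3 UMIs. Krt35, Mt4, Selenbp1 and Dsg4 lie highest in the Krt35 hair shaft cells, whereas Krt31, Krt33a, Krt33b and Krt34 have 0 UMIs there and Krt25, Krt28 and Krt71 peak in the Krt71 cells. Krt35, Krt71 and Krt5 were used to choose the groups, so their order between the groups is largely set by the rules.

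The cells were next set against the 567 Krt5 Lhx2 keratinocytes of the same library, whose depth was alike (a median of 24763 UMIs in Krt35 hair shaft cells and 23745 in Krt5 Lhx2 keratinocytes). A gene was counted as measured with at least 30 UMIs in both groups together and as higher or lower from a ratio of at least 2-fold. Of 12912 measured genes, 593 were higher in the Krt35 hair shaft cells (4.59%) and 2610 were lower (20.2%), and the median log2 ratio was -0.09. Since both groups were picked by genes of the same cells, these ratios describe the groups. Krt35, Hoxc13, Krt5 and Lhx2 belong to the rules and are left out of the counts per list here and in the comparison with Krt71 cells. A signed or plain number in parentheses after a gene name below is its log2 ratio, followed by the interval where one is given.

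With genes under 200 UMIs in both groups left out, and apart from Krt35, the 14 highest ratios ran from Selenbp1 down to Bambi. Some genes with fewer UMIs, given further on, had ratios above most of these. Selenbp1 stood at 537 CPM in Krt35 hair shaft cells and 2.54 CPM in Krt5 Lhx2 keratinocytes, a log2 ratio of 7.72 (7.26 to 8.23). Dsg4 stood at 160 CPM and 0.803 CPM in the same order, a log2 ratio of 7.64 (6.82 to 8.61). Mt4 stood at 1349 CPM in Krt35 hair shaft cells and 62.6 CPM in Krt5 Lhx2 keratinocytes, a log2 ratio of 4.43 (4.32 to 4.54), and the ranges overlapped, since 63 of 567 Krt5 Lhx2 cells had Mt4 and 8 of 80 Krt35 hair shaft cells had none. The others were Dapl1 (log2 ratio 4.15), the netrin receptor Unc5b (3.37), the BMP-binding protein Bmper (3.25), the zinc finger gene Zfp618 (3.23), Pmel (3.11), the mitochondrial calcium channel subunit Mcub (3.10), the ribonuclease Rnaset2b (2.90), the iron reductase Cybrd1 (2.90), the pigment enzyme Tyrp1 (2.88), the guanine nucleotide exchange factor Dock8 (2.86) and Bambi (2.80). Unc5b was the most even of them, with a UMI in 78 of 80 cells. A single cell held 92.9% of the Pmel UMIs and 80.2% of the Tyrp1 UMIs. Without the mixed cells their log2 ratios were -1.58 and -1.59. This drop follows in part from the choice of these cells by Pmel, which was applied to the Krt35 hair shaft cells only. Rnaset2b has a near-identical neighbour copy and is uncertain.

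The type II hair keratins were all higher in the Krt35 hair shaft cells, at log2 ratios of 6.20 (Krt86), 6.59 (Krt83) and 6.96 (Krt87), each from 3 to 13 UMIs over the 567 Krt5 Lhx2 cells. S100a3 had a log2 ratio of 4.03 (3.58 to 4.49). In the list of other hair shaft genes, 8 of 17 measured members were higher and 3 were lower, with a median of 0.88. The higher ones included Selenbp1, Dsg4, Mt4 and S100a3. Dsg3, the desmosomal cadherin of basal cells, was among the lower ones, with 91.4 CPM in Krt35 hair shaft cells and 264 CPM in Krt5 Lhx2 keratinocytes. Dsp and Jup, the shared desmosome parts, were within 2-fold, at log2 ratios of 0.14 and 0.31. Of 8 measured inner root sheath genes, 5 were higher and 2 lower (median 1.06), and without the mixed cells 3 were higher and 2 lower.

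Transcription factors of the hair matrix split into 2 directions. Of 27 measured members of the list, 10 were higher and 8 were lower, with a median log2 ratio of 0.21. Lef1, the factor that carries Wnt signals to DNA, stood at 1541 CPM in Krt35 hair shaft cells, where every cell had it (159 to 3958 CPM, median 1536), and at 260 CPM in Krt5 Lhx2 keratinocytes, whose median cell had none. Its log2 ratio was 2.57 (2.50 to 2.63). Trps1, a repressor lost in human tricho-rhino-phalangeal syndrome, stood at 1668 CPM in Krt35 hair shaft cells and 769.8 CPM in Krt5 Lhx2 keratinocytes (log2 ratio 1.12), and Ovol1, a zinc finger repressor of epithelial maturation, had the highest ratio of the list (3.57, 3.22 to 3.91). The homeobox genes Msx1 and Msx2 were higher, with log2 ratios of 2.38 and 2.62, as was Foxn1, the gene of the nude mouse (2.89, from 42 UMIs). On the other side were Barx2 (-6.42), Nfatc1 (-5.16, from 4 UMIs), Irx5 (-4.03), Bcl11b (-3.16), Gata3 (-2.51) and the vitamin D receptor Vdr, with 58.6 CPM in Krt35 hair shaft cells and 342 CPM in Krt5 Lhx2 keratinocytes (-2.54). Cux1, Cdh3 and Runx1 were between these limits.

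Components of BMP and Notch signalling were higher in part, with targets and ligands among them. In the BMP list, 8 of 17 measured members were higher and 3 were lower (median 0.23). The ligands Bmp8a (31 UMIs, log2 ratio 6.74, 4.77 to 9.85) and Bmp4 (2.53, 2.10 to 2.95), the target genes Id1 (1.38), Id2 (2.29) and Id3 (1.51), the inhibitors Smad6 (1.62) and Smad7 (1.57) and the decoy receptor Bambi (2.80, 2.52 to 3.07) were higher. Bambi stood at 102 CPM in Krt35 hair shaft cells and 14.7 CPM in Krt5 Lhx2 keratinocytes. The receptor Bmpr1a, needed for hair shaft maturation, was close to even at 235 CPM in Krt35 hair shaft cells and 201 CPM in Krt5 Lhx2 keratinocytes. The antagonist Grem1 had 0 UMIs in Krt35 hair shaft cells and 15.1 CPM in Krt5 Lhx2 keratinocytes, a log2 ratio of at most -3.44.

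In the Notch list, 5 of 10 measured members were higher and 1 was lower (median 1.01). Jag1, a Notch ligand, was found in all 80 Krt35 hair shaft cells (72.9 to 1716 CPM, median 520) and stood at 533 CPM there against 120 CPM in Krt5 Lhx2 keratinocytes, a log2 ratio of 2.15 (2.04 to 2.26). The receptors Notch1 and Notch3 were higher, with log2 ratios of 1.51 and 1.94, and so were the target genes Hes1 (1.34) and Heyl (4.09, from 32 UMIs). The coactivator Maml2 was lower (-1.53).

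Wnt genes were mixed, with 6 of 17 measured members higher and 3 lower (median 0.29). The lower ones were the ligands Wnt6 and Wnt7b and the receptor Fzd7. Lef1 led in level, and the feedback inhibitors Notum (2.85, from 24 UMIs) and Nkd1 (1.59) and the ligands Wnt5a (1.20), Wnt10b (1.56) and Wnt3 (1.50) were higher. Axin2, another feedback target, had 44.8 CPM in Krt35 hair shaft cells and 22.4 CPM in Krt5 Lhx2 keratinocytes, just under 2-fold. Ctnnb1, which encodes β-catenin, was within 2-fold (0.23). With both groups limited to cells with an Mki67 UMI, 3 of 17 Wnt genes were higher, while the BMP list had 7 higher of 15 and the Notch list 5 of 10. Over all genes, 433 were higher in that setting, against 593 with all cells.

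Hedgehog and growth factor genes lay on the lower side. In the Hedgehog list, 0 of 9 measured members were higher and 4 were lower: the ligand Shh (9 UMIs, log2 ratio -2.66), the effectors Gli1 (-1.40) and Gli2 (-1.39) and the inhibitor Hhip, which had 0 UMIs. The receptor Ptch1, itself a Hedgehog target, had 97.4 CPM in Krt35 hair shaft cells and 168 CPM in Krt5 Lhx2 keratinocytes. In the FGF and EGF list, 0 of 14 were higher and 9 were lower (median -1.48), led by the EGF receptor ligand Areg (-4.01, -7.07 to -2.14, from 2 UMIs), the growth factors Fgf7 (-4.00, -9.31 to -1.49) and Fgf5 (-3.69, -9.01 to -1.17) from 1 UMI each, and the ligand Tgfa (-2.90). The receptors Egfr (712 CPM in Krt35 hair shaft cells and 457 CPM in Krt5 Lhx2 keratinocytes) and Fgfr2 (386 CPM and 349 CPM in the same order) were close to even.

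**Figure D3:**
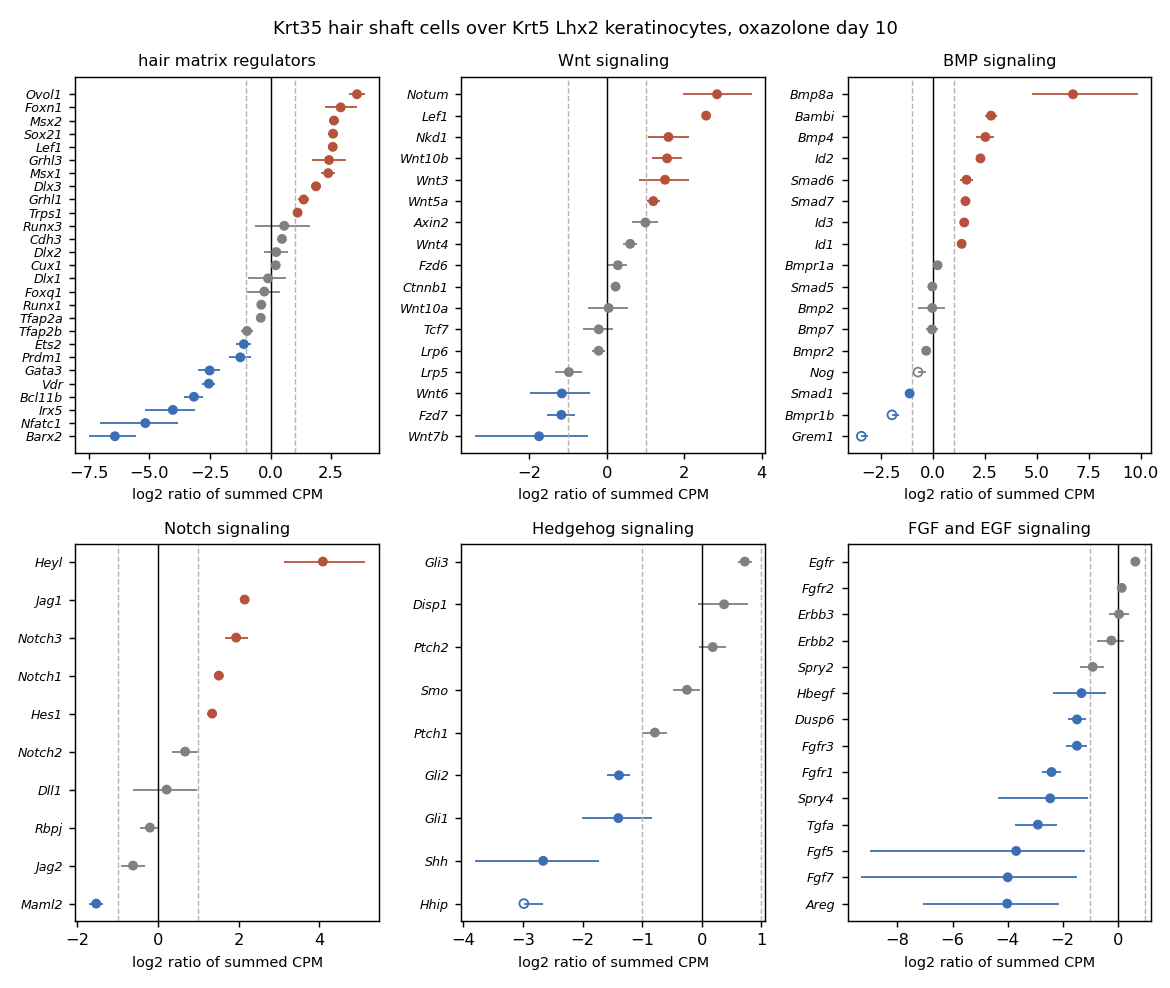
Log2 ratio of summed CPM, Krt35 hair shaft cells over Krt5 Lhx2 keratinocytes, for each measured gene of 6 lists, with 95% counting intervals as lines, open circles for genes with 0 UMIs in 1 group (a bound) and dashed lines at 2-fold. Red genes are at least 2-fold higher and blue genes at least 2-fold lower; 8 of 17 BMP genes and 5 of 10 Notch genes are red, and 9 of 14 FGF and EGF genes are blue.

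Genes of the outer root sheath, basal layer and upper follicle were lower. In the companion and outer root sheath list 10 of 11 measured members were lower (median -4.09), in the basal list 6 of 7 (-2.84) and in the upper follicle list 5 of 6 (-3.98), and 0 members of these 3 lists were higher. The highest log2 ratio in the companion and outer root sheath list was 0.80. Krt14 stood at 58.6 CPM in Krt35 hair shaft cells and 1330 CPM in Krt5 Lhx2 keratinocytes (log2 ratio -4.50, -4.77 to -4.25). Krt17 stood at 147 CPM and 1588 CPM in the same order (-3.44), and Krt15, a keratin of follicle stem cells, at 42.0 CPM and 1295 CPM (-4.95), with 52.7% of its UMIs in 1 Krt35 hair shaft cell. Sox9, a factor of the outer root sheath, had 14 UMIs (-5.53). The Krt5 minimum of the Krt5 Lhx2 group favours such genes there. The 10 lowest ratios at the same minimum of 200 UMIs came from 0 to 5 UMIs in the Krt35 hair shaft cells. Krt6a and Krtdap, a gene of differentiating epidermis, had 0 UMIs and were at least 138-fold and 109.9-fold lower. From 1 to 3 UMIs came the ratios of the Wnt antagonist Sfrp1 (-8.13, -10.4 to -6.58), the metalloprotease Tll1 (-7.27, -10.3 to -5.41), Cstdc5 (-6.98, -12.3 to -4.50), the sarcoglycan Sgcd (-6.78, -12.1 to -4.30), Tafa1 (-6.48, -11.8 to -3.99) and Ly6d (-6.45, -9.50 to -4.60). The dermokine gene Dmkn (-6.53) and Plcl1 (-6.48) had 5 UMIs each. The list of suprabasal epidermal genes was split. Of 7 measured members, 3 were higher (Lor, Dsg1a and Dsc1) and 3 were lower (Krtdap, Sbsn and Calm4), with a median of -0.28. Trp63, the master transcription factor of stratified epithelia, was within 2-fold, at 561 CPM in Krt35 hair shaft cells and 847 CPM in Krt5 Lhx2 keratinocytes.

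Antigen presentation and cytokine response genes were low in the Krt35 hair shaft cells. In the interferon and MHC list, 0 of 21 measured members were higher and 14 were lower, with a median log2 ratio of -1.87, against 20.2% of all genes lower. B2m, the light chain of MHC class I, stood at 80.3 CPM in Krt35 hair shaft cells (cells from 0 to 511, median 47.5) and 544 CPM in Krt5 Lhx2 keratinocytes (0 to 2459, median 517), a log2 ratio of -2.76 (-2.98 to -2.54). The ranges overlapped, but the median cell differed by about as much as the sums. The heavy chain genes were lower too: H2-K1 stood at 73.4 CPM and 519.6 CPM in the same order (-2.82) and H2-D1 at 73.9 CPM and 401 CPM (-2.44). MHC class I genes have close copies, so the count of each is uncertain. The immunoproteasome genes Psmb8 (7 UMIs, -3.89) and Psmb9 (13 UMIs, -2.76), the peptide transporter Tap1 (-2.04) and the interferon factor Irf1 (5 UMIs, -3.09) were lower, and the chemokine gene Cxcl9 had 1 UMI (-6.02, -11.3 to -3.53). Among MHC class II genes, Cd74 had 13.4 CPM in Krt35 hair shaft cells and 17.7 CPM in Krt5 Lhx2 keratinocytes, and 25 of 80 Krt35 hair shaft cells had a Cd74 UMI, against 188 of 464 fibroblasts.

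The same held for receptors of type 2 and related cytokines. Of 11 measured members of the IL-4, IL-13 and oncostatin M list, 0 were higher and 8 were lower (median -2.62). Il13ra1 stood at 12.0 CPM in Krt35 hair shaft cells and 82.3 CPM in Krt5 Lhx2 keratinocytes (-2.78), Osmr at 9.23 CPM and 63.5 CPM in the same order (-2.78) and the signal carrier Stat3 at 49.4 CPM and 231 CPM (-2.22). Il4ra had 4 UMIs in the 80 cells, 1.85 CPM (0.503 to 4.73), against 11.4 CPM in Krt5 Lhx2 keratinocytes. Tnc and Timp1, which respond to these cytokines, had log2 ratios of -2.93 and -3.32, and 1 cell held 66.0% of the Tnc UMIs and 90.0% of the Timp1 UMIs. Stat6 was even (-0.08, -0.61 to 0.41). In the keratinocyte inflammation list 9 of 16 measured members were lower and 1, Tnf, was higher (median -1.22). Tnf had 16 UMIs in 6 cells, and without the mixed cells 0 members of the list were higher. The chemokine genes Ccl27a (0.923 CPM in Krt35 hair shaft cells, from 2 UMIs, and 29.5 CPM in Krt5 Lhx2 keratinocytes), Cxcl1 (-4.75, -10.1 to -2.25, from 1 UMI) and Cxcl5 (-3.95, from 4 UMIs) were lower, while Nfkbia and Sod2 were between the limits. The alarmin genes Il33, Tslp and Il1a had 0 UMIs in the 80 cells, and they were low in the Krt5 Lhx2 keratinocytes as well (2.21, 0.201 and 1.47 CPM in the same gene order).

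The counts were also taken with other sets of cells. With both groups limited to cells with an Mki67 UMI, 12 of 19 interferon and MHC genes and 8 of 11 IL-4, IL-13 and oncostatin M genes were lower. With high doublet scores removed, 14 of 19 and 10 of 11 were lower. Over all genes, 2061 were lower in the Mki67 setting and 2422 with high doublet scores removed, against 2610 with all cells. The early response and dissociation stress list, which reports on handling, had 0 of 23 members higher and 7 lower (median -0.40), with Fos at 219 CPM in Krt35 hair shaft cells and 258 CPM in Krt5 Lhx2 keratinocytes and Jun at 282 CPM and 372 CPM in the same order.

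**Figure D4:**
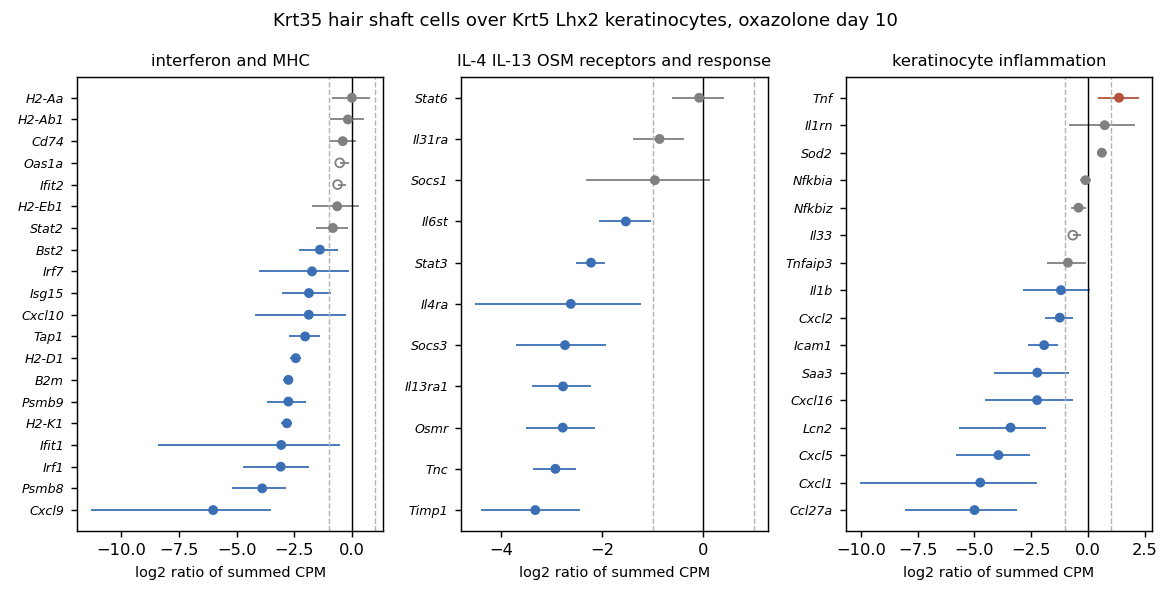
Log2 ratio of summed CPM, Krt35 hair shaft cells over Krt5 Lhx2 keratinocytes, for measured genes of the interferon and MHC, IL-4, IL-13 and oncostatin M, and keratinocyte inflammation lists, with 95% counting intervals, open circles for genes with 0 UMIs in 1 group and dashed lines at 2-fold. Blue genes are at least 2-fold lower, 13 of 20, 8 of 11 and 9 of 16 drawn for the 3 lists.

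Pigment genes were high in a few cells. Of 12 measured members of the melanosome list, 11 were higher. Without the 4 mixed cells, 2 of 11 were higher and 6 were lower. Pmel, a member of the list, chose 2 of those cells, and the Krt5 Lhx2 keratinocytes were not filtered by it, so that count is no separate check. With high doublet scores removed, 11 of 12 were higher. Dct, a melanin enzyme, had 380 CPM in the 80 cells, 75.0% of it in 1 cell, and 62.7 CPM without the mixed cells, against 70.7 CPM in Krt5 Lhx2 keratinocytes. Gpnmb, a melanosome and lysosome glycoprotein, was spread more widely, with 13.1% of its UMIs in the top cell, 144 CPM in Krt35 hair shaft cells and 27.4 CPM in Krt5 Lhx2 keratinocytes (2.40). Kitl, which feeds melanocytes through the receptor Kit, had 304 CPM in Krt35 hair shaft cells and 154 CPM in Krt5 Lhx2 keratinocytes, just under 2-fold.

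Genes that supply cysteine and reducing power, which hair keratins need for their cross-links, were mostly even: 2 of 16 measured members were higher and 4 were lower (median -0.10). Mt1 and Mt2, the general metallothioneins, were among the most abundant transcripts at 2836 CPM and 2983 CPM in Krt35 hair shaft cells against 2195 CPM and 1668 CPM in Krt5 Lhx2 keratinocytes. The lower ones included the taurine carrier Slc6a6 (-3.14) and the glutathione peroxidase Gpx2 (-5.55, -10.9 to -3.06, from 1 UMI). Slc7a11, the cystine carrier, was higher (1.17), with 46.7% of its 60 UMIs in 1 cell.

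A second comparison was made with 24 cells of the same library with at least 5 UMIs of Krt71, at most 4 of Krt35 and none of Ptprc, which share the matrix as their origin (median 24763 UMIs in Krt35 hair shaft cells and 19734 in Krt71 cells). Of 8200 measured genes, 812 were higher in the Krt35 hair shaft cells (9.90%) and 569 were lower (6.94%), with a median log2 ratio of -0.07. Without the mixed cells, 689 were higher and 598 lower. Markers of other cell types were among the higher genes: 11 of 12 melanosome genes (3 of 4 without the mixed cells), 2 of 4 fibroblast markers (0 of 2 without them), 4 of 7 outer root sheath genes and 4 of 7 basal genes, and their part in the other differences was not tested. Inner root sheath genes were lower, 3 of 4 measured: Krt25 stood at 90.0 CPM in Krt35 hair shaft cells and 1189 CPM in Krt71 cells (-3.72), Krt28 at 112 CPM and 571 CPM in the same order (-2.35) and Gata3, a factor of the inner root sheath, at 18.9 CPM and 531 CPM (-4.81). Krt27 did not differ beyond counting error (0.07, -0.62 to 0.82). Mt4 and Dsg4 had 0 UMIs in the Krt71 cells, with log2 ratios of at least 7.76 and 4.69.

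Ligands and targets of Wnt, BMP and Notch were on the side of the Krt35 hair shaft cells here too. In the Wnt list 7 of 14 measured members were higher, in the BMP list 7 of 13 and in the Notch list 3 of 9, and 0 members of these 3 lists were lower. Lef1 had a log2 ratio of 3.01 (2.71 to 3.33), Jag1 of 2.58 (2.14 to 3.05) and Bambi of 2.63 (1.62 to 3.86). Id3 (0.20) and Notch1 (-0.51) were within 2-fold. The transcription factor Cux1 was lower, at 539 CPM in Krt35 hair shaft cells and 2277 CPM in Krt71 cells (-2.08). Cell cycle genes were even or lower, with 6 of 21 lower, led by the replication genes Mcm2 (-1.94) and Mcm3 (-1.73). MHC genes were low in both: B2m stood at 80.3 CPM in Krt35 hair shaft cells and 145 CPM in Krt71 cells (-0.85). Of 5 measured interferon and MHC genes, 1, H2-D1, was lower (-1.31). The median of the 5 was -0.85, against -0.07 for all genes, and the highest was -0.31. Of 7 measured IL-4, IL-13 and oncostatin M genes, 1 was higher (Tnc), 1 was lower (Osmr) and 5 were between (median -0.28). In the keratinocyte inflammation list, 0 of 3 measured members were higher and 0 were lower. Few members of these lists were measured here. Whether their low levels against Krt5 Lhx2 keratinocytes were shared with the Krt71 cells was not tested. Early response genes differed: 10 of 21 were higher, among them Egr1 (2.11) and Fosb (3.04), and the part of handling in this was not tested.

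Transcripts of dividing cells were found in many Krt35 hair shaft cells. Mki67, a proliferation marker, stood at 596 CPM (564 to 629), and Top2a, which untangles replicated DNA, at 513 CPM (483 to 544). An Mki67 UMI was seen in 77.5% of the 80 cells, against 15.3% of fibroblasts, and a Top2a UMI in 58.8% against 17.2%. Other follicle cells had high shares too. An Mki67 UMI was seen in 51.7% of Krt5 Lhx2 keratinocytes and 91.7% of Krt71 cells, and a Top2a UMI in 46.9% and 70.8% in the same order. With at least 5 UMIs, the shares of Krt35 hair shaft cells were 53.8% for Mki67 and 35.0% for Top2a, against 9.70% and 6.25% of fibroblasts. In Krt5 Lhx2 keratinocytes Mki67 stood at 368 CPM and Top2a at 348 CPM. Of 21 cell cycle genes, 2 were higher in Krt35 hair shaft cells and 0 were lower (median 0.36). The values per cell were spread widely, from 0 to 8577 CPM for the sum of the list, with a median of 928.

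Within the 80 cells, those with the most Krt35 had the lowest cell cycle levels and also fewer UMIs. The cells were ordered by Krt35 CPM, and the 26 highest (1364 to 8042 CPM) were set against the 26 lowest (114 to 397 CPM), with 28 between. Within 20% of a border lay 3 cells of the highest group, 3 of the lowest and 13 of those between, so these are ranges and not kinds of cells. The 26 highest cells had fewer UMIs (median 21498) than the 26 lowest (median 34066), and Krt35 CPM and total UMIs had a Spearman correlation of -0.43 over the 80 cells, which the 5 UMI minimum for Krt35 favours, since a shallow cell passes only at a high CPM. Of 6452 measured genes, 222 were higher in the highest cells (3.44%) and 959 were lower (14.9%). The median log2 ratio of all genes was -0.17, and with that median set to 0 the counts were 364 and 785.

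Cell cycle genes were lower in 20 of 21 measured cases, with a median log2 ratio of -2.50. Mki67 stood at 149 CPM in the highest cells and 844 CPM in the lowest (-2.50, -2.84 to -2.18), and Top2a at 96.5 CPM and 863 CPM in the same order (-3.16, -3.58 to -2.77). The histone gene Hist1h2ap, made during DNA synthesis, had the lowest ratio of the list (-4.76). The sum of the list had a median of 196 CPM per cell among the highest (0 to 6191) and 4085 CPM among the lowest (50.9 to 8577), so the ranges overlapped. With the cells ordered again by Krt35 UMIs after thinning to 3000 UMIs, 20 of 20 measured cycle genes were lower. Ties in that order were set by the full Krt35 CPM, and gene levels were summed from all UMIs. This order is therefore no check on depth. In the first order, with at least 100 UMIs required, 11 of 12 cycle genes were lower. Over the 80 cells, the Spearman correlation of Mki67 CPM was -0.54 with Krt35 CPM and 0.55 with total UMIs, and that of Top2a CPM was -0.52 with Krt35 CPM and 0.57 with total UMIs. The part of depth in the cycle differences was not tested.

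Shaft genes ran the other way. Selenbp1 stood at 1245 CPM in the highest cells and 41.5 CPM in the lowest, a log2 ratio of 4.91 (4.43 to 5.43). Dsg4 stood at 295 CPM and 35.9 CPM in the same order (3.04), S100a3 at 116 CPM and 23.5 CPM (2.30) and Mt4 at 1952 CPM and 869 CPM (1.17). The 3 measured type II hair keratins were higher, with log2 ratios of 1.96 for Krt86, 1.89 for Krt83 and 2.18 for Krt87. Of 10 measured genes in the list of other shaft genes, 5 were higher and 1, Dsg3, was lower. Across the 80 cells, which share 1 library, the Spearman correlation with Krt35 CPM was 0.73 for Selenbp1 and 0.54 for Dsg4 (-0.18 and -0.33 for the same genes with total UMIs), and 0.24 for Mt4 (-0.07 with total UMIs).

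In the Notch list, 4 of 8 measured genes were higher in the highest cells and 2 were lower. Notch1 stood at 499 CPM in the highest cells and 178 CPM in the lowest (1.48, 1.20 to 1.77), Notch3 at 139 CPM and 25.8 CPM in the same order (2.43), Jag1 at 718 CPM and 341 CPM (1.07) and Hes1 at 620 CPM and 234 CPM (1.40). The ligand Jag2 was lower, with 3.51 CPM in the highest cells and 93.1 CPM in the lowest (-4.73, -7.80 to -2.83), and the coactivator Maml2 was lower as well (-2.78). The receptor Notch2 was within 2-fold (-0.55). Notch1 CPM had a Spearman correlation of 0.46 with Krt35 CPM and -0.40 with total UMIs, and Hes1 CPM one of 0.36 with Krt35 CPM and -0.40 with total UMIs. In the BMP list, 0 of 12 measured genes passed 2-fold in either direction. Lef1, Trps1, Msx2 and Hoxc13 also stayed within 2-fold, Lef1 at 1710 CPM in the highest cells and 1413 CPM in the lowest.

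Basal genes were lower in all 7 measured cases and outer root sheath genes in all 7, with Krt5 counted in both lists and Lhx2 in the outer root sheath list, since neither was used to choose these cells. Krt5 stood at 28.1 CPM in the highest cells and 433 CPM in the lowest (-3.95, -4.77 to -3.23), Trp63 at 309 CPM and 779 CPM in the same order (-1.33) and Wnt5a at 29.8 CPM and 358 CPM (-3.58). The inner root sheath keratin Krt28 was lower (-1.36), and Krt25 was just under 2-fold (-0.91). The fibroblast markers moved in the same direction, with 4 of 4 measured lower: Dcn stood at 42.1 CPM in the highest cells and 508 CPM in the lowest (-3.59). Without the mixed cells, the 1 fibroblast marker still measured was lower, 19 of 20 cycle genes and 7 of 7 basal genes were lower, and the part of fibroblast transcripts in these differences was not tested. The glutathione synthesis genes Gclc (-2.99) and Gclm (-2.77) were lower too. Early response genes were higher in 7 of 20 measured cases, among them Atf3 (1.61) and Egr1 (1.10), and in 13 of 20 after the order was taken from thinned cells.

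**Figure D5:**
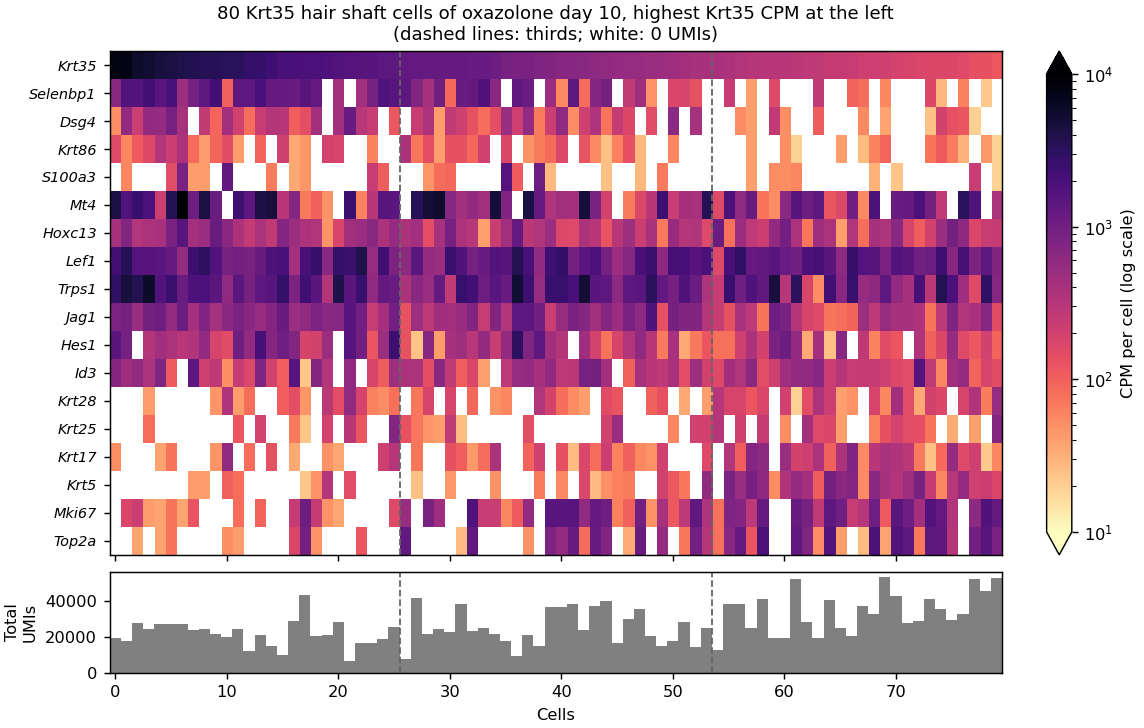
CPM per cell (log colour scale, white for 0 UMIs) of 18 genes in the 80 Krt35 hair shaft cells of oxazolone day 10, ordered from the highest Krt35 CPM at the left, with total UMIs per cell below and dashed lines around the 28 cells between the highest 26 and the lowest 26. Selenbp1 and Dsg4 fill the left side and Mki67, Top2a and Krt5 the right, while Lef1 and Jag1 are present in all 80 cells.

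The 4 cells outside oxazolone day 10 were too few for ratios and are given one by one. At oxazolone day 16 the first cell, with 60002 UMIs, had 155 UMIs of Krt35 (2583 CPM), 43 of Hoxc13, 33 of Mt4, 8 of Dsg4, 17 of Krt86 and 43 of Krt28. The second, with 19576 UMIs, had 32 UMIs of Krt35 (1635 CPM), 4 of Hoxc13, 1 of Mt4, 7 of Dsg4 and 183 of Lef1. The third, with 7684 UMIs, had 12 UMIs of Krt35 (1562 CPM), 4 of Hoxc13, 5 of Dsg4, 62 of Lef1 and none of Mt4. All 3 lay within the range of the oxazolone day 10 cells for Krt35, and 0 of them had an Mki67 UMI. Lef1 reached 9348 CPM in the second and 8069 CPM in the third, above the highest oxazolone day 10 cell (3958 CPM). Selenbp1 was low, with 3 UMIs in the first cell, 1 in the second and none in the third.

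The untreated cell lacked most of the other shaft genes. It held 17357 UMIs, with 6 of Krt35 (346 CPM), 10 of Hoxc13 and 8 of Lef1, but none of Mt4, Selenbp1, Dsg4, Krt86 or Mki67, and it had 30 UMIs of Krt14 (1728 CPM) and 18 of Krt5 (1037 CPM). The highest Krt14 level among the oxazolone day 10 cells was 760.1 CPM, below that of the untreated cell. Over all kept cells, Mt4 had 8139 UMIs at oxazolone day 10, 139 at oxazolone day 16, 34 in MC903 day 9 and 423 in untreated skin, there all outside the cell that met the rule. Krt86 had 241 UMIs at oxazolone day 10, 64 at oxazolone day 16, 4 in MC903 day 9 and 4 in untreated skin, and Dsg4 had 503, 39, 0 and 16 in the same libraries.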

How the data were processed

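Single-cell RNA libraries (10x 3′ chemistry) of 4 conditions, 1 per condition, were deposited by the authors as raw UMI counts per gene and cell barcode, with barcodes already called as cells. Per the submitters' processing notes, Cell Ranger 8.0 and mm10 were used, while the file headers give version 7.2.0 (oxazolone day 10, untreated) or 8.0.0 (oxazolone day 16, MC903). The annotation is not given in the sources used here, and 28847 barcodes were deposited, of which 27755 were kept.

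Cells were gated by UMI counts as described above, the gene UMIs of a gate were summed and divided by its total (CPM), and Poisson, Clopper-Pearson and conditional binomial intervals were computed with scipy 1.17.1. A count of 0 was set to 3 UMIs and its ratio written as a bound. Doublets were scored with Scrublet in scanpy 1.11.5 at 0.8% per 1000 barcodes and were not removed in the values reported. The ratio step was tested on simulated data. Kept cells per library were 8301 at oxazolone day 10 (119717836 UMIs over all its barcodes), 7909 at oxazolone day 16 (108142462), 3843 in MC903 day 9 (73054242) and 7702 in untreated skin (92861164).

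The cells and the gene lists were chosen with earlier results of these data known. A rule set the candidates for naming. They were every hair keratin, the 6 most abundant members of each list and the 4 measured members with the largest ratios per list and comparison. The 15 highest and 10 lowest ratios against Krt5 Lhx2 keratinocytes were added, with genes under 200 UMIs in both groups left out. For these, genes of the mitochondrion, ribosomal proteins, globins and immunoglobulins, gene predictions and markers on the sex chromosomes were not considered. Not every candidate is named, and some lists are not described. Members outside the rule are named to complete a count or a pathway, and these were chosen after their values were seen. A gene of the interferon and MHC list that enters its counts is not reported here by name. Alternatives varied the UMI minimums, filters, doublet removal, scaling, thinning and the minimum for a measured gene.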

Additional observations from a re-analysis of the deposited data

How the results depend on the processing

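Oxazolone day 10 had the highest share and oxazolone day 16 the next under every gate tried, and untreated skin was level with MC903 day 9 at a Krt35 minimum of 10 UMIs. The share of cells at oxazolone day 10 was 0.663% with at least 10 Krt35 UMIs and 2.41% of cells without Ptprc, oxazolone day 16 stood at 0.175% of cells without Ptprc, and untreated skin stood at 0% with at least 10 Krt35 UMIs. The number of genes called depended on the minimum for a measured gene. Against Krt5 Lhx2 keratinocytes, 1062 genes were higher with at least 10 UMIs and 378 with at least 100, and 1721 were lower with at least 100. Against Krt71 cells, 1293 and 308 genes were higher and 971 and 221 lower at the same 2 minimums. Between the highest and the lowest Krt35 cells, 556 and 65 genes were higher and 1817 and 275 lower, and 364 were higher with the median ratio set to 0. Fewer genes pass the stricter minimum by construction. Direction changed for 5 of 907 log2 ratios, counting only those that were at least 2-fold before the setting was changed. Smaller ratios that changed sign were not counted. Without the mixed cells the log2 ratios against Krt5 Lhx2 keratinocytes were -0.17 for Dct, -1.58 for Pmel and -1.59 for Tyrp1. With both groups limited to Mki67 cells Pmel was -0.66. Between the highest and lowest Krt35 cells, Dct was 0.024 without the mixed cells. Leaving out the mixed cells, and limiting a comparison to Mki67 cells, were chosen after seeing the data. Of 1768 list counts, 179 moved by over 1.5 times or to or from 0. Ratios between libraries and their alternatives were not run, since the other libraries held fewer than 20 of the cells. No paired analysis was possible because each condition had 1 library. Depth limits genes near 1 UMI per cell: levels under 1.39 CPM cannot be told from 0 in the 80 cells.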
